A study of Mus musculus with 6 samples.

Results

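Interleukin-10 (Il10), both chains of its receptor (Il10ra and Il10rb), BLIMP-1 (Prdm1), the IL-27 receptor chain WSX-1 (Il27ra) and the transcription factors NFIL3 (Nfil3) and BHLHE40 (Bhlhe40) were followed in mouse pathogenic Th17 cells that had lost STIM1. These 7 genes were picked by symbol from the 23393 gene rows of the table, and all 7 were among the 11947 genes tested. They were chosen by their place in the IL-10 pathway with their values in this same comparison already known, so their differences between the groups are given as a description and support nothing by themselves.

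The first group, Stim1KO Stat3C, held cells of Stim1fl/fl Stat3CSTOPfl/fl CD4-Cre mice, and the second, Stat3C, cells of Stat3CSTOPfl/fl CD4-Cre mice, all C57BL/6. Naive CD4 T cells had been stimulated for 2 days through CD3 and CD28 with plate-bound antibodies, and the cytokines added were IL-23, IL-6 and IL-1b. Stat3C is a constitutively active STAT3 that Cre, driven by the Cd4 promoter and thus active throughout the T cell lineage, switches on by removing a stop sequence. Both groups carried it, so neither shows these genes under normal STAT3. In the first group the floxed segment of Stim1 was deleted by Cre as well. Stim1 encodes the calcium sensor of the endoplasmic reticulum that opens store-operated calcium channels. Each group had 3 poly(A) RNA libraries, and the sources used here do not give the age of the mice or say whether replicates came from separate mice.

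IL-10 is a cytokine that restrains inflammation. It binds a receptor of IL-10Rα, the ligand-binding chain, and IL-10Rβ, a chain shared with the receptors of IL-22 and other family members, and signals through JAK1, TYK2 and STAT3. T helper cells make it under the control of c-MAF and BLIMP-1, among others, and IL-27 is a classical inducer. NFIL3 promotes and BHLHE40 represses Il10 transcription in T cells.

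All levels below are the authors' normalised read counts, that is, reads per gene scaled per library. They compare a gene between libraries and not genes with each other, unless a value is given per kilobase of exon. Group values are mean ± SD with n = 3 each. Each log2 fold change sets Stim1KO Stat3C over Stat3C after adding 1 to every value and comes with its standard error (SE). The added 1 makes the change of low genes look smaller. The whole reads recovered came to 16009755, 20660749 and 22519269 in Stim1KO Stat3C replicates 1, 2 and 3. In Stat3C they came to 51347367, 43532417 and 23092044. Every Stim1KO Stat3C library thus had fewer reads than any Stat3C library, and a value of 0 says less in Stim1KO Stat3C. Stim1 itself stood at 811, 794 and 687 normalised counts in Stim1KO Stat3C, against 1999, 1969 and 1931 in Stat3C. It fell by 1.37 on the log2 scale (SE 0.08, limma adjusted p = 0.000287), and no library went against its label. Replicate 3 of each group differed from replicates 1 and 2 in the sex of the cells: Xist was at 11550 in Stim1KO Stat3C replicate 3 and at 8362 in Stat3C replicate 3, and at most 3.53 elsewhere, with Y-linked genes the other way round. Replicate 3 of each group therefore came from other mice than replicates 1 and 2. If replicates 1 and 2 of a group shared a mouse, the spread between these libraries is technical. CD4 T cell markers summed to 50712 to 56751 in Stim1KO Stat3C and 43640 to 46414 in Stat3C, and 5 of the 8 rose and 0 fell. Markers of Th17 cells summed to 5069 to 6483 in Stim1KO Stat3C and 15505 to 20307 in Stat3C, and 3 of the 7 fell, Il17a and Il17f among them.

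BLIMP-1, encoded by Prdm1, is a zinc-finger repressor that ends proliferation and drives effector differentiation of lymphocytes. The gene lies on the minus strand at chr10:44437177-44528501 of GRCm38. The sequence upstream of 1 of its starts is shown. Such a sequence was found for Prdm1 and Nfil3 only, and only that of Prdm1 matched a pattern searched. The match is to the pattern for AP-1, a transcription factor that calcium and T cell receptor signals feed. The window is chr10:44458699-44458998, minus strand, from RefSeq (GRCm38.p6), and runs from 250 bases before that start to 50 after it. The start of the longest annotated span, at 44528501, lies outside it.
Prdm1 promoter: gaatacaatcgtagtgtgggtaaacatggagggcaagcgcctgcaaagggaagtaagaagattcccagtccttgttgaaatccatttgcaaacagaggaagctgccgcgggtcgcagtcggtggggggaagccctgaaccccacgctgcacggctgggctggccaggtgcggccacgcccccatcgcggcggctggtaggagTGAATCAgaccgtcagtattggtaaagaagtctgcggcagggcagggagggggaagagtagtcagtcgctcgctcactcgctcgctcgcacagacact
The capitals mark the match to the AP-1 pattern, searched as TGANTCA on both strands and found as TGAATCA from base -48 relative to the start. N stands for any base, so this match, with A there, need not be a usual AP-1 site. Binding of AP-1 was not tested. The pattern TGANTCA was held by 7.81% of all 32851 promoter windows of this length. The motifs TGCTGA (the core of the MAF site, in 19.5% of windows), CACGTG (E-box, 7.15%), TTANGTAA (the D-box bound by NFIL3, 2.32%), TTCNNNGAA (STAT, 8.30%), TGGAAA (NFAT, 21.4%) and GNGAAAG (BLIMP-1, 22.6%) had no match in these letters, which says nothing of the factors. Of the 7 genes, Prdm1 and Nfil3 had a window. That of Nfil3 was 81.7% G and C, against 59.7% for Prdm1, and held none of the 7 motifs.

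Il10 and Prdm1 showed by far the widest separation of the 7. Il10, at chr1:131019845-131024974 on the plus strand, stood at 2060, 1490 and 3667 normalised counts in Stim1KO Stat3C replicates 1, 2 and 3, against 203, 477 and 240 in Stat3C. The groups were far apart, and the lowest Stim1KO Stat3C library was 3.12 times the highest Stat3C library. The means were 2406 ± 1129 in Stim1KO Stat3C and 307 ± 149 in Stat3C, a 7.83-fold ratio and a log2 fold change of 2.97 (SE 0.38). Among the 11947 genes tested this was the 48th highest fold change. In such bulk samples, more cells making Il10 and more Il10 RNA per cell in Stim1KO Stat3C cannot be told apart, and the same holds for every gene below, higher or lower.

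Prdm1 stood at 2612, 2136 and 2406 normalised counts in Stim1KO Stat3C, against 345, 669 and 589 in Stat3C. The 3 Stim1KO Stat3C libraries lay close together, and the lowest of them was 3.19 times the highest Stat3C library. The means were 2385 ± 239 in Stim1KO Stat3C and 535 ± 169 in Stat3C, a 4.46-fold ratio and a log2 fold change of 2.21 (SE 0.22), the 97th highest.

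Both genes varied between libraries of a group more than most genes of their level. The log2 SD within groups was 0.65 for Il10 and 0.37 for Prdm1, above that of 99.2% and 98.8% of the 1000 genes nearest in level, whose median was 0.09 for each. Counting error was small, since the fewest reads in any library were 248 for Il10 (6.35% counting error) and 608 for Prdm1 (4.06%). In replicates 1 and 2 the log2 fold change was 2.49 for Il10 and 2.29 for Prdm1. Between the replicate 3 libraries, 1 per group and of the other sex, the difference was 3.93 for Il10 and 2.03 for Prdm1, with no replicate check. Per kilobase of exon, Il10 was 3.36, 2.97 and 6.49 times as high as Prdm1 in Stim1KO Stat3C, and 2.51, 3.04 and 1.74 times as high in Stat3C. These ratios overlap between the groups.

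Macrophages can make Il10 and plasma cells carry Prdm1, so their markers are given beside these values. The 8 macrophage and monocyte markers summed to 375 to 431 normalised counts in Stim1KO Stat3C and 219 to 460 in Stat3C. The defining markers Csf1r and Adgre1 (listed as Emr1) were at 0 in all 3 Stim1KO Stat3C libraries. In Stat3C replicates 1, 2 and 3 Csf1r was at 2.16, 7.05 and 0, and Adgre1 at 3.03, 26.7 and 0. Cd68, a lysosomal protein, averaged 359 ± 39.9 in Stim1KO Stat3C and 131 ± 13.2 in Stat3C, and rose, while Mrc1 fell. In Stat3C replicate 2, the library with the most Il10 of its group, Adgre1 was at 26.7 and Itgam at 72.5. That library was also the highest of its group for 6 of the 7 genes and for 41.6% of all genes tested. Without that library the log2 fold change of Il10 was 3.34. The 6 plasma cell markers summed to 519 to 624 in Stim1KO Stat3C and 360 to 439 in Stat3C, and 2 of the 5 tested (Tnfrsf13b and Derl3) rose. Sdc1, Jchain (listed as Igj) and Mzb1 did not pass. They averaged 275, 35.7 and 5.74 in Stim1KO Stat3C and 204, 23.9 and 25.7 in Stat3C. Tnfrsf17, which encodes BCMA, was at 0 in all 6 libraries. B cell markers summed to 32.2 to 63.0 in Stim1KO Stat3C and 151 to 432 in Stat3C, with 3 of 6 tested lower, Cd79a and Blnk among them, and Ms4a1 and Blnk were at 0 in every Stim1KO Stat3C library. Both CD8 T cell markers were also lower, summing to 111 to 159 in Stim1KO Stat3C and 277 to 453 in Stat3C. Dendritic cell markers summed to 12.3 to 49.8 in Stim1KO Stat3C and 18.6 to 42.8 in Stat3C, with Clec9a and Siglech at 0 throughout, and natural killer cell markers summed to 31.1 to 117 in Stim1KO Stat3C and 41.6 to 70.0 in Stat3C. The 1 gene tested in each of these lists (Zbtb46 and Klrk1) did not pass. The part of macrophages, plasma cells, B cells, CD8 T cells and Cd68-expressing cells in the results was not tested.

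**Figure D1:**
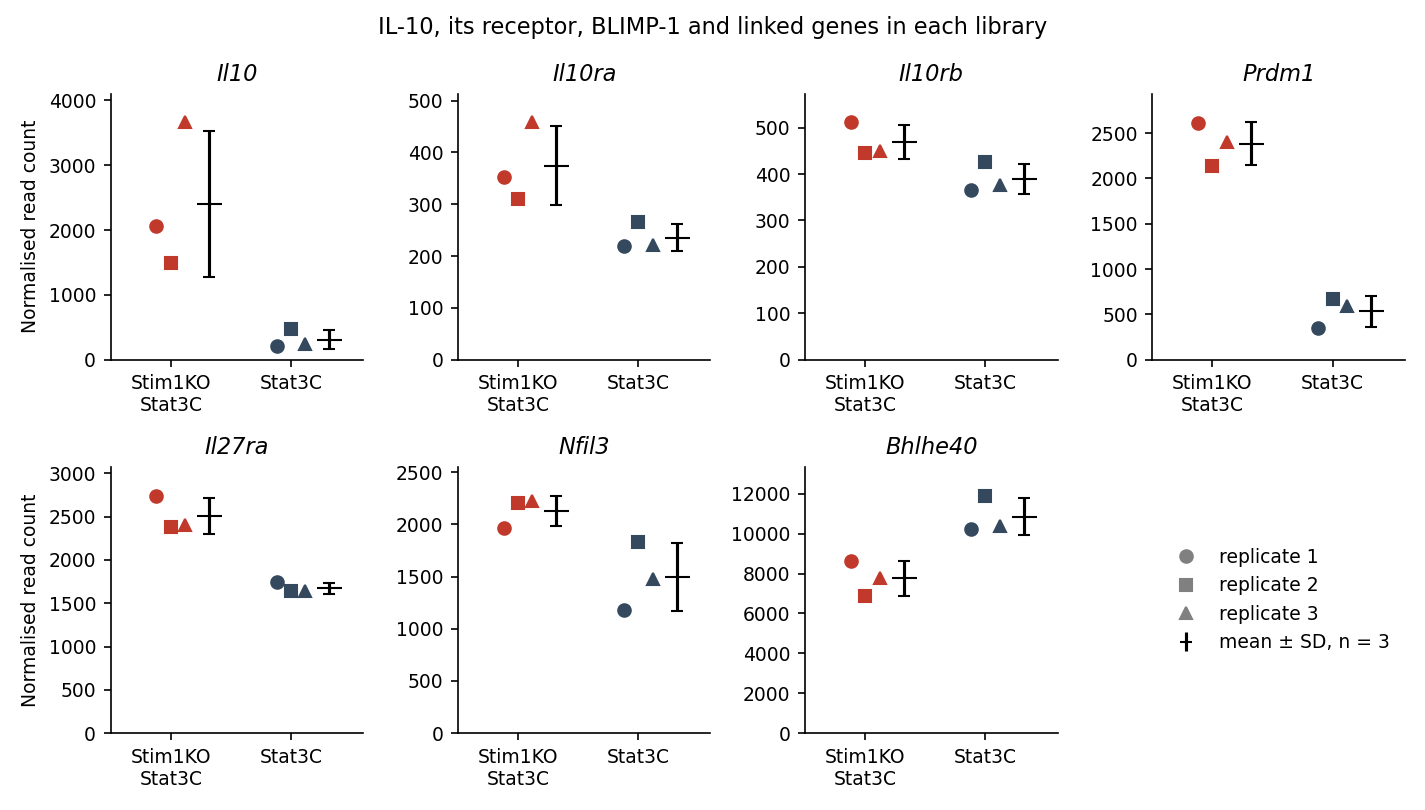
Normalised read counts (y axis, from 0, its own scale in each panel) of the 7 genes in the 3 Stim1KO Stat3C libraries (red, left) and the 3 Stat3C libraries (blue, right); symbols mark the replicate number and the black bar beside them the mean ± SD, n = 3. Il10 and Prdm1 are more than 3 times as high in the lowest Stim1KO Stat3C library as in the highest Stat3C library, Bhlhe40 lies lower in Stim1KO Stat3C, and no gene's groups overlap.

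The receptor genes differed less. Il10ra, at chr9:45253837-45269149 on the minus strand, encodes the chain that binds IL-10. It stood at 353, 310 and 459 normalised counts in Stim1KO Stat3C, against 220, 265 and 222 in Stat3C, with the highest value in the same library as for Il10. The means were 374 ± 76.4 in Stim1KO Stat3C and 236 ± 25.3 in Stat3C, a 1.59-fold ratio and a log2 fold change of 0.65 (SE 0.16). The fold change was 0.45 in replicates 1 and 2, and the difference in replicate 3 was 1.04. Il10ra no longer passed the threshold, an adjusted p of 0.05, when Stim1KO Stat3C replicate 1 or 3, or Stat3C replicate 1 or 3, was left out, with fold changes of 0.68, 0.49, 0.60 and 0.61.

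Il10rb, at chr16:91406164-91425834 on the plus strand, encodes the shared chain. It stood at 512, 446 and 450 normalised counts in Stim1KO Stat3C, against 365, 425 and 376 in Stat3C. The nearest values of the groups were only 1.05-fold apart. The means were 469 ± 37.3 in Stim1KO Stat3C and 389 ± 32 in Stat3C, with a log2 fold change of 0.27 (SE 0.10) that did not pass the threshold. Of its exon bases 14.9% are shared with Gm21970, a gene model on the same strand with no row in the table, so reads there may have been split or lost. Per kilobase, Il10ra was 0.751, 0.758 and 1.11 times Il10rb in Stim1KO Stat3C, and 0.657, 0.678 and 0.643 times in Stat3C, so the ligand-binding chain was the lower of the pair in 5 of 6 libraries. The ligand stood at 15.6, 12.8 and 21.3 times Il10ra in Stim1KO Stat3C, against 2.47, 4.81 and 2.89 times in Stat3C.

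Il27ra, at chr8:84030294-84042589 on the minus strand, encodes the chain that pairs with gp130 to bind IL-27, a cytokine that was not among those listed for the culture. It stood at 2744, 2380 and 2400 normalised counts in Stim1KO Stat3C, against 1748, 1640 and 1638 in Stat3C. The libraries within a group agreed closely, and the lowest Stim1KO Stat3C library was 1.36 times the highest Stat3C library. The means were 2508 ± 205 in Stim1KO Stat3C and 1675 ± 62.9 in Stat3C, a log2 fold change of 0.58 (SE 0.07). The spread of Il27ra was ordinary for its level (above that of 55.6% of the nearest 1000 genes), and the fold changes of 0.59 in replicates 1 and 2 and 0.55 in replicate 3 were nearly equal.

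Nfil3 and Bhlhe40, the promoting and the repressing factor, lay in opposite directions. Nfil3, at chr13:52967209-52981073 on the minus strand, stood at 1964, 2209 and 2223 normalised counts in Stim1KO Stat3C, against 1181, 1833 and 1474 in Stat3C. The groups nearly touched, 1.07-fold apart at their nearest values. The means were 2132 ± 146 in Stim1KO Stat3C and 1496 ± 326 in Stat3C, a log2 fold change of 0.53 (SE 0.14). Nfil3 lost its place past the threshold in 13 of 20 alternative analyses, among them edgeR, voom, Xist as a covariate and leaving out any library but Stat3C replicate 2. The fold change was 0.37 to 0.59 in these leave-one-out fits and 0.53 with Xist as a covariate.

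Bhlhe40, at chr6:108660629-108666925 on the plus strand, stood at 8640, 6869 and 7798 normalised counts in Stim1KO Stat3C, against 10232, 11915 and 10402 in Stat3C. It was the only one of the 7 that was lower in Stim1KO Stat3C, in all 3 libraries. The means were 7769 ± 886 in Stim1KO Stat3C and 10850 ± 926 in Stat3C, a log2 fold change of -0.48 (SE 0.09). The call of Bhlhe40 was lost in 4 of 20 alternative analyses. These were limma without the variance trend, edgeR without Stim1KO Stat3C replicate 3, and the limma and edgeR fits of replicates 1 and 2 alone. An antisense gene, 0610040F04Rik, shares 2.51% of the exon bases of Bhlhe40 but averaged 2.18 normalised counts in Stim1KO Stat3C and 3.87 in Stat3C. Per kilobase, Bhlhe40 was 1.89, 1.34 and 1.51 times Nfil3 in Stim1KO Stat3C, against 3.73, 2.80 and 3.04 times in Stat3C, ranges that do not overlap.

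Of the 7 genes, 6 passed an adjusted p of 0.05 in limma over all genes (5 higher in Stim1KO Stat3C and Bhlhe40 lower), where 13.6% of all genes tested passed, 8.62% higher and 4.96% lower. The groups of all 7 did not overlap, as for 35.6% of all genes tested. The median log2 fold change was 0.58 over the 7 and -0.00 over all genes. The genes were selected on this comparison, so nothing is read from these counts. With replicates 1 and 2 alone, none passed in limma or edgeR. In that limma fit 5 of the 7 (all but Il10rb and Nfil3) had an unadjusted p under 0.05. So had 2587 of all 11947 genes tested, and nothing is read from this count either. Stat3C replicate 2 was the highest and Stat3C replicate 1 the lowest library of its group for 6 of the 7, Il27ra being the exception, where this held for 41.6% and 28.0% of all genes. Stim1KO Stat3C replicate 2 was the lowest of its group for 6 of the 7, all but Nfil3, and for 29.5% of all genes.

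The order of the levels differed between the groups. Per kilobase of exon, Il10 had the highest mean in Stim1KO Stat3C, 1836 normalised counts per kb (1138 to 2799), followed by Bhlhe40 with 1651 (1460 to 1836), and these ranges overlap. Nfil3 followed with 1052 (969 to 1097), then Il27ra with 718 (681 to 785) and Prdm1 with 427 (383 to 468), which lay apart from each other. Il10rb (123, from 117 to 135) and Il10ra (107, from 88.7 to 131) came last and overlap. In Stat3C, Bhlhe40 led with 2306 (2175 to 2532), before Nfil3 with 738 (583 to 905) and Il27ra with 479 (469 to 500), with no overlap. Il10 came only after these, with 234 (155 to 364). Il10rb with 102 (95.8 to 112), Prdm1 with 95.8 (61.9 to 120) and Il10ra with 67.4 (63.0 to 75.7) were lowest there, and Prdm1 overlaps both receptor chains.

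**Figure D2:**
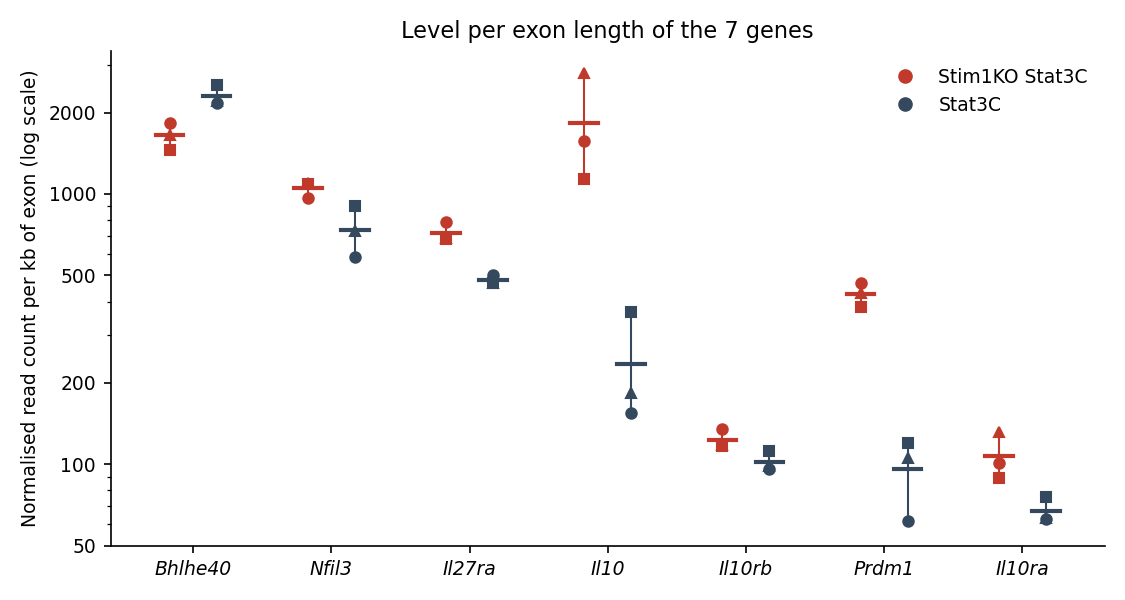
Normalised read counts per kb of exon (y axis, log scale) of the 7 genes, ordered by their Stat3C mean; for each gene Stim1KO Stat3C (red) is left of Stat3C (blue), circles, squares and triangles are replicates 1, 2 and 3, the thin line spans them and the thick bar is the mean. Il10 lies between Il27ra and Il10rb in Stat3C and level with Bhlhe40 in Stim1KO Stat3C.

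The regulators of Il10 were read from a list of 24 genes, all tested. Of these, 10 rose, 2 fell and 12 did not pass, with a median log2 fold change of 0.31 against -0.00 for all genes. Over all genes tested, 8.62% rose and 4.96% fell at the same threshold. This and the lists below were chosen with earlier results of these data known, so their counts and medians are a description only. Maf, whose product c-MAF activates Il10 in T helper cells, averaged 1789 ± 293 normalised counts in Stim1KO Stat3C and 363 ± 31.0 in Stat3C, and rose by 2.29 (SE 0.12, adjusted p = 0.000287). Il21r, the receptor of IL-21, rose by 0.65 (SE 0.05, adjusted p = 0.000564). Ikzf3, the Ikaros family factor Aiolos, averaged 2234 ± 182 in Stim1KO Stat3C and 1118 ± 62.7 in Stat3C, and rose (adjusted p = 0.000564). Stat4, which carries IL-12 signals, averaged 1348 ± 98.6 in Stim1KO Stat3C and 2174 ± 55.0 in Stat3C, and fell by 0.69 (SE 0.07, adjusted p = 0.00158). Eomes, Ahr, Il21, Ets1, Tbx21, Icos and Gata3 also rose. Stat3 was level, at 20945 ± 445 in Stim1KO Stat3C and 21254 ± 496 in Stat3C, with a log2 difference of -0.02 (SE 0.05, adjusted p = 0.782). The number that rose was 6 without Stim1KO Stat3C replicate 1 or without Stat3C replicate 3.

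Downstream of the receptor, 3 of 10 signalling genes rose and 7 did not pass, where 8.62% of all genes tested rose and 4.96% fell. The median log2 fold change was 0.26. Those that rose were Bcl3, an IκB-like nuclear protein (0.40, SE 0.07, adjusted p = 0.0126), Hmox1, heme oxygenase 1 (0.80, SE 0.17, adjusted p = 0.0213), and Tyk2, the kinase of Il10rb (0.32, SE 0.09, adjusted p = 0.0454). Tyk2 lost its call in 12 of 20 alternative analyses, edgeR, voom, upper-quartile scaling and no filter on low values among them. Hmox1 lost it without Stim1KO Stat3C replicate 1 or 2 or Stat3C replicate 1 or 3, and Bcl3 without Stim1KO Stat3C replicate 2 or Stat3C replicate 1. Socs3, the feedback inhibitor that STAT3 induces, averaged 3054 normalised counts in Stim1KO Stat3C and 2721 in Stat3C and did not pass. The count was 1 without Stim1KO Stat3C replicate 1 or Stat3C replicate 3, 0 without Stim1KO Stat3C replicate 2 or Stat3C replicate 1, and 6 without Stat3C replicate 2. Of 9 tested genes of the IL-27 pathway none passed in limma, with 3 at an unadjusted p under 0.05 (Ebi3 and Irf1 among them), 0 in edgeR and those 3 in DESeq2, and 3 passed without Stat3C replicate 2. Jak2 averaged 9670 ± 754 in Stim1KO Stat3C and 8679 ± 697 in Stat3C there. Of the IL-10 family cytokines, Il22 and Il24 were tested and neither passed in limma, edgeR or DESeq2, while Il24 alone had an unadjusted limma p under 0.05 and passed without Stat3C replicate 2. Il22 averaged 778 ± 424 in Stim1KO Stat3C and 1406 ± 944 in Stat3C, a spread that covers the difference, and Il24 463 ± 116 in Stim1KO Stat3C and 287 ± 125 in Stat3C. Of 6 tested receptor chains of the same class 5 did not pass and 1, Ifngr2, the signalling chain of the interferon-gamma receptor, fell by 0.54 (SE 0.10, adjusted p = 0.0143), a call lost without Stim1KO Stat3C replicate 1 or 2 or Stat3C replicate 1 or 3. In edgeR and DESeq2 F3 passed as well as Ifngr2. Chains called higher numbered 3 without Stat3C replicate 2, and 1 in voom or with Xist as a covariate, against 0 in the main limma test.

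Genes that BLIMP-1 is known to repress in lymphocytes had a median log2 fold change of -0.65 over 15 tested, where 5 fell, 2 rose and 8 did not pass. Over all genes tested, 4.96% fell and 8.62% rose. Whether BLIMP-1 repressed any gene of the list here was not tested. Tcf7, whose product TCF1 maintains naive and memory T cells, averaged 4501 ± 483 normalised counts in Stim1KO Stat3C and 8653 ± 578 in Stat3C, and fell by 0.95 (SE 0.08, adjusted p = 0.0013). Fos, an AP-1 subunit, fell by 0.93 (SE 0.15, adjusted p = 0.00654). Ccr7, the lymph node homing receptor, fell by 0.65 (SE 0.11, adjusted p = 0.00762). Spib also fell. It is a B lineage gene that had at most 1.37 normalised counts in Stim1KO Stat3C and 13.1 to 34.2 in Stat3C, where the B cell markers given above were also higher. Pax5, itself among those B cell markers, and Ciita had log2 fold changes of -2.90 and -1.20 that did not pass but count in the median. Ciita was at 105 normalised counts in Stat3C replicate 2 and at most 12.3 elsewhere. Il2ra and Cxcr5 rose instead. Il2ra, the IL-2 receptor α chain, averaged 54983 ± 287 in Stim1KO Stat3C and 36902 ± 663 in Stat3C, and rose by 0.58 (SE 0.04, adjusted p = 0.000564). Spib, Pax5, Ciita and Cxcr5 were named after their values were seen. Without Stat3C replicate 2 the number that fell was 10, and the number that rose was 1 without Stim1KO Stat3C replicate 1 or 3 or Stat3C replicate 1 or 3.

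A list of co-inhibitory receptor genes, which BLIMP-1 and c-MAF have been tied to in T cells, also held the ectoenzymes CD73 and CD39. Of its 11 tested genes 4 rose, both ectoenzymes among them, and 7 did not pass, where 8.62% of all genes tested rose. The receptor genes Pdcd1, Lag3 and Tigit were among those that did not pass. The median log2 fold change of the 11 was 0.79. Nt5e, the ectoenzyme CD73, rose by 1.28 (SE 0.16, adjusted p = 0.00317). Havcr2, which encodes TIM-3, stood at 366, 163 and 459 normalised counts in Stim1KO Stat3C, against 16.9, 65.0 and 18.4 in Stat3C, and rose by 3.41 (SE 0.55, adjusted p = 0.00762). Ctla4 rose by 0.79 (SE 0.15, adjusted p = 0.0126), as did Entpd1, the ectoenzyme CD39, with 700 ± 213 in Stim1KO Stat3C and 304 ± 107 in Stat3C (adjusted p = 0.0291). The call of Entpd1 was lost in 9 of 20 alternative analyses, among them leaving out any library but Stat3C replicate 2, and that of Ctla4 without Stim1KO Stat3C replicate 1. The count was 2 without Stim1KO Stat3C replicate 1. Type 1 regulatory T cells are FOXP3-negative cells known for making IL-10. Of 14 genes tied to them 10 rose, against 8.62% of all genes tested, and 4 did not pass. The 4 were Lag3, Gzma, Tigit and Cd226, with log2 fold changes of 0.26, 0.09, -0.04 and -0.43. In DESeq2 Cd226 passed as lower. Without Stat3C replicate 2, 1 gene of the list was called lower and 11 higher. The median of the list was 0.84. Of the 10, Maf, Eomes, Ahr, Il21 and Icos are also in the list of regulators, Havcr2 and Ctla4 in that of co-inhibitory receptors, and Tnfrsf18, Itga2 and Gzmb in no other. Eomes averaged 175 ± 83.4 in Stim1KO Stat3C and 17.8 ± 4.16 in Stat3C, a rise of 3.15 (SE 0.36, adjusted p = 0.00213), and Ahr 798 ± 174 in Stim1KO Stat3C and 338 ± 56.4 in Stat3C, a rise of 1.23 (SE 0.17, adjusted p = 0.00435). The count was 5 without Stim1KO Stat3C replicate 1 and 6 without Stat3C replicate 3.

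BHLHE40 and NFIL3 also act in the circadian clock, NFIL3 on the D-box and BHLHE40 on the E-box. Of 13 tested family members and clock partners none passed in limma, edgeR or DESeq2, and 1, Cry2, had an unadjusted limma p under 0.05. Per1 averaged 936 ± 99.8 normalised counts in Stim1KO Stat3C and 997 ± 24.7 in Stat3C, and Cry1 910 ± 87.0 in Stim1KO Stat3C and 988 ± 42.9 in Stat3C. Over all 9 lists, with the 7 genes left out, 89 distinct genes were tested, of which 22 rose and 8 fell. Of all 11947 genes tested 13.6% passed, 8.62% higher and 4.96% lower. The number that rose was 10, 13, 13 and 11 without Stim1KO Stat3C replicate 1, Stim1KO Stat3C replicate 2, Stat3C replicate 1 and Stat3C replicate 3, and 35 without Stat3C replicate 2. The number that fell was 15 without Stat3C replicate 2.

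**Figure D3:**
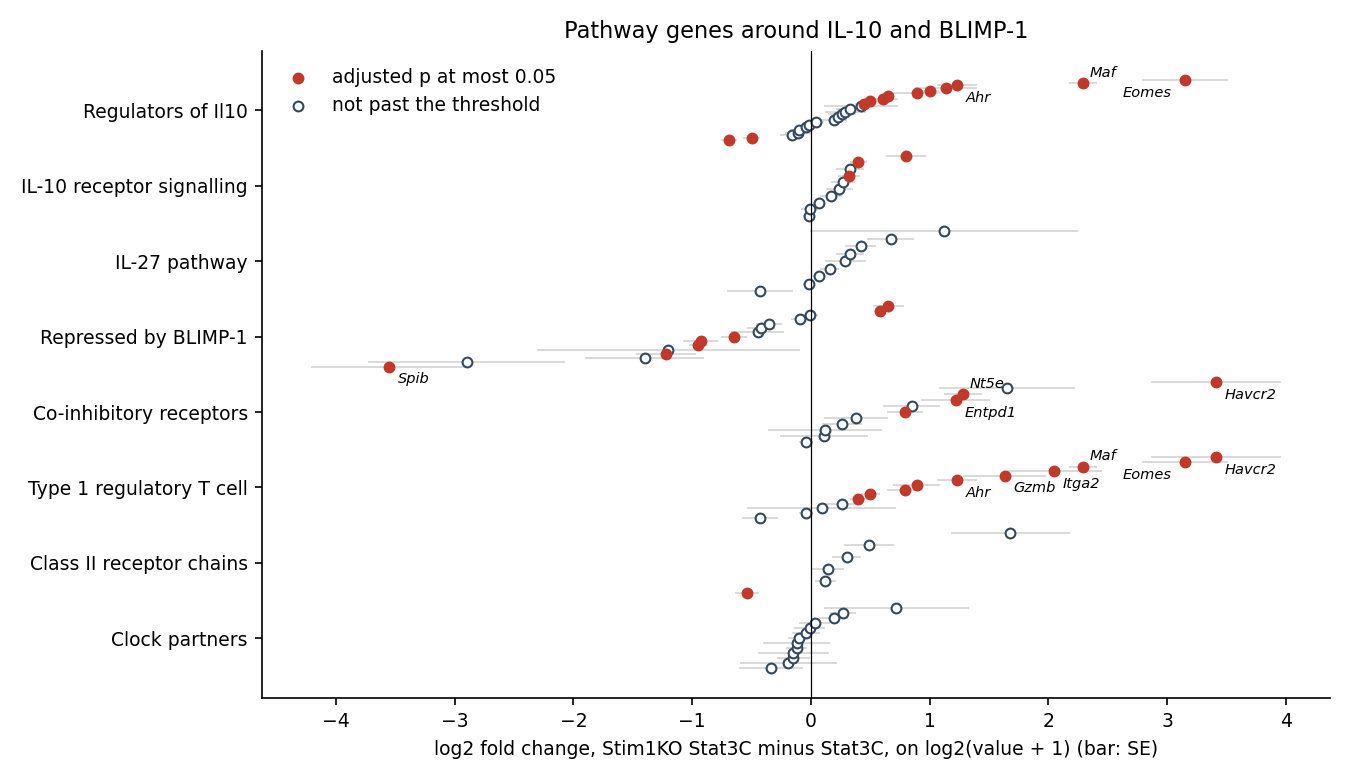
Log2 fold change, Stim1KO Stat3C minus Stat3C, on log2(value + 1) (x axis) of each tested gene of 8 lists (rows; the list of IL-10 family cytokines, with 2 tested genes, is not drawn); bars are ± 1 SE, filled red points passed an adjusted p of 0.05 and open points did not. A gene in several lists appears in each, names mark called genes above 1.2 or below -2, and in the row of genes repressed by BLIMP-1 the 5 that fell lie left of 0 and the 2 that rose right of it.

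The genes whose profiles over the 6 libraries lay nearest to Il10 and to Prdm1 were sought among the 10244 genes that averaged 50 or more normalised counts. Likeness was the root mean square distance of the log2 values, each gene centred on its own mean, and the median distance over all these genes was 1.58 from Il10 and 1.15 from Prdm1. The profiles span both groups, so the distances and their medians depend largely on how far the log2 fold changes differ. The genes nearest to Il10 were the chemokines Ccl3 (0.21) and Ccl4 (0.33), then Akap6 (0.35), which anchors protein kinase A, Havcr2 (0.39), Glrx (0.40), a glutaredoxin, and Cxcr6 (0.42), a chemokine receptor. Ccl3 stood at 6342, 3064 and 11316 normalised counts in Stim1KO Stat3C, against 497, 1269 and 582 in Stat3C. Like Il10 it was highest in Stim1KO Stat3C replicate 3 and, within Stat3C, in replicate 2. The genes nearest to Prdm1 were Hlx (0.17), a homeobox factor, Emp1 (0.20), a membrane protein, Inha (0.20), the inhibin α subunit, Vim (0.21), the filament protein vimentin, Cwh43 (0.21) and Maf (0.25). Hlx stood at 399.9, 352 and 279 in Stim1KO Stat3C, against 46.3, 88.6 and 72.7 in Stat3C. Il10 and Prdm1 lay 0.57 apart. From Il10, the other 5 genes lay 1.21 (Il10ra) to 1.79 (Bhlhe40) away. The log2 fold changes were 2.97 for Il10, 2.21 for Prdm1, 0.65 for Il10ra and -0.48 for Bhlhe40. They were known when these genes were selected. The distances between the selected genes largely restate them, so nothing is read from these distances. Il10 and Maf differed in that Maf was lowest and Il10 highest in Stim1KO Stat3C replicate 3, at 1560 against 3667 normalised counts.

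**Figure D4:**
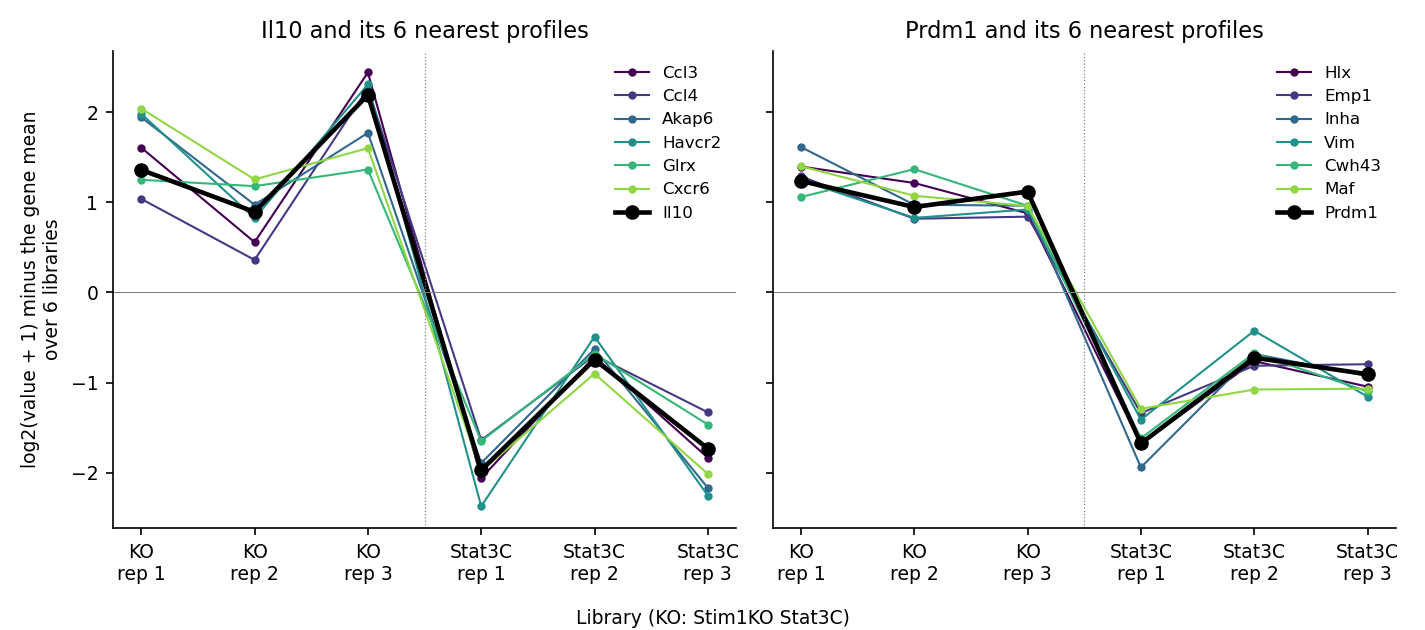
Log2(value + 1) minus the gene's own mean over 6 libraries (y axis) in each library (x axis, KO for Stim1KO Stat3C on the left, Stat3C on the right) of Il10 (left panel) and Prdm1 (right panel), in black, with the 6 nearest genes in colour; lines join the values of 1 gene and imply no order of replicates. The Il10 profile peaks in Stim1KO Stat3C replicate 3, and the Prdm1 profile is nearly flat within Stim1KO Stat3C.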

How the data were processed

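Poly(A) RNA of 6 libraries, 3 per genotype, was made with a stranded kit from 100 ng of RNA, per the labels' protocols. Per the submitters' processing notes, DESeq2 1.22.2, HTSeq 0.11.1, TopHat2 2.1.1 and the build mm10 were used, with no step named. No source used here states the counting settings or whether strand was used, which leaves overlapping genes uncertain. The table deposited by the authors holds a normalised signal per gene, here called normalised read counts. In every library, dividing by 1 constant step turned 100% of the values into whole reads (tolerance 0.01). For Stim1KO Stat3C replicate 3 the step is so near 1 that this cannot be told from rounding. A value of 0 allows 3 reads, 1.30 to 4.11 normalised counts by library (counting error only). Rows whose name had become a date, 27 with at most 0.217% of the reads, were left out.

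The main test was limma 3.58.1 (R 4.3.3) on log2(value + 1) with the trend option for the variance, two-sided and without covariates, for genes with a mean of at least 10, with Benjamini-Hochberg adjustment over 11947 genes and a threshold of 0.05. Count models ran on the recovered reads as alternatives: edgeR 4.0.16 called 1507 genes, DESeq2 1.42.0 called 2250 and voom 1350, against 1623 in the main test. The steps were tested on simulated data. Replicates were numbered in accession order. Of 20 alternatives 17 were planned, and 3 were added after the data were seen. Exon lengths and positions came from GENCODE (GRCm38), and all 154 list and marker genes were found, 2 by an older symbol. Promoter windows came from RefSeq, where 2 of the 7 genes matched. Il10, Il10ra, Il10rb, Il27ra and Bhlhe40 were not matched. A search of the receptor proteins was planned, but protein sequences were not used here.

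The 7 genes and the lists were chosen with earlier results of these data known. Named were the 7 genes, Stim1, for each list the 4 called genes of lowest adjusted p (or, with none called, the 2 of highest mean), the 6 nearest profiles of Il10 and of Prdm1, and the 4 nearest genes with a row on each side of Il10 and Prdm1. Further genes complete a count or illustrate a list (Socs3 and single markers among them), and these were picked with their values in view. The values of a few list and marker genes are not reported here.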

Additional observations from a re-analysis of the deposited data

How the results depend on the processing

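No member of the 7 changed direction under the 20 alternatives, whose log2 fold changes ran from 2.38 to 3.34 for Il10, 1.92 to 2.39 for Prdm1, 0.44 to 0.78 for Il10ra, 0.21 to 0.34 for Il10rb, 0.51 to 0.62 for Il27ra, 0.37 to 0.69 for Nfil3 and -0.56 to -0.40 for Bhlhe40. Il10, Prdm1 and Il27ra kept their call with any 1 library left out and lost it only in the fits of replicates 1 and 2 alone, which had 4 libraries. The count over all genes was 1623, and 827 in limma without the variance trend, 922 in edgeR without Stim1KO Stat3C replicate 3, and 82 (limma) and 32 (edgeR) with replicates 1 and 2 only. The count over the 7 genes was 6, and in the same order 3, 3, 0 and 0. That of list genes higher was 22, and 10, 13, 6 and 2. That of list genes lower was 8, and 1 in both fits of replicates 1 and 2. Leaving out 1 library gave 617 to 2899 genes in all, the lowest without Stat3C replicate 1 and the highest without Stat3C replicate 2 (686 and 775 without Stim1KO Stat3C replicates 1 and 2, 651 without Stat3C replicate 3). It gave 4 to 6 of the 7 genes, 10 to 35 list genes higher and 6 to 15 lower. The cause was not tested. In the fits of replicates 1 and 2 only, 2587 genes had an unadjusted limma p under 0.05. No paired analysis was possible because the labels give the groups no shared replicate numbers. With Xist as a covariate, which stands for the sex of the cells, 1738 genes and 5 of the 7 passed, all but Il10rb and Nfil3. With 3 libraries per group, and 1 of the other sex in each, small differences such as that of Il10rb cannot be settled. No value gives protein, secreted IL-10 or the share of cells making it.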

Other observations

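The genes next to Il10 and Prdm1 on the chromosome were read from the same fit. Il10 lies in a cluster with the related cytokine genes Il19, Il20 and Il24. Il19, 79.7 kb away, had at most 1.99 normalised counts in Stim1KO Stat3C and at most 4.84 in Stat3C, and Il20 was at 0 in all 6 libraries. Il24, 132 kb away, had overlapping groups (334 to 557 in Stim1KO Stat3C, 180 to 425 in Stat3C). On the other side, Mapkapk2, a kinase downstream of p38 that lies 28.7 kb away, averaged 13519 ± 860 in Stim1KO Stat3C and 10990 ± 506 in Stat3C, and rose by 0.30 on the log2 scale (SE 0.06, limma adjusted p = 0.0187). That call was lost without Stim1KO Stat3C replicate 1 or 2 or Stat3C replicate 1 or 3. Rassf5, 151 kb away, rose by 0.34 (SE 0.05, adjusted p = 0.00669). Dyrk3, Eif2d and Fcmr (listed as Faim3) did not pass. All these differences were much smaller than the 2.97 of Il10.

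Around Prdm1, none of the 5 tested neighbours passed in limma. Atg5, an autophagy gene 72.9 kb away, averaged 921 ± 69.5 in Stim1KO Stat3C and 804 ± 59.5 in Stat3C, which is 0.20 on the log2 scale (SE 0.09, adjusted p = 0.165). Crybg1 (listed as Aim1), Rtn4ip1, Qrsl1 and Prep had log2 fold changes of -0.15, -0.20, 0.02 and -0.08. Crybg1 passed in DESeq2. Popdc3, Bves and Lin28b were under the filter on low values.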
